A study of Ciona robusta with 15 samples.

Results

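Siphons of the sea squirt Ciona robusta that were 3 days into regrowth were set against siphons labelled non-regenerating, across every transcript that could be tested. The comparison takes 6 of the 15 libraries of the study, 3 in each group, picked by their labels alone, and the 3 libraries taken immediately after amputation (day 0) serve as context. All libraries come from the oral siphon of wild type siblings aged 6 months, bred from a single pair of adults. The day 3 and day 0 groups are named for the time since the siphon was cut under anaesthesia, while the handling of the non-regenerating group is not described. A library is the polyadenylated RNA of 5 pooled siphon samples, so the spread between libraries is a spread between pools and not between animals. Whether pools shared animals or buckets is not stated.

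The oral siphon is the muscular tube through which the animal draws seawater. Its wall carries epidermis, bands of muscle, nerves and, at the rim, pigmented sensory organs, and after amputation it grows back with the help of dividing cells that move in from the branchial sac. Bulk RNA averages all of these tissues, and fewer cells of a type cannot be told apart from less RNA per cell. Transcripts are given by their Ensembl identifier, because 0 of the 17745 identifiers could be paired with a gene in the table of 21486 genes used here. For the same reason the tissue could not be checked against marker genes, and no function is given for any transcript.

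The day 3 libraries held 7039611 to 14346807 counts and the non-regenerating libraries 10573547 to 33413013. Of 17745 transcripts, 15328 had enough counts to be tested. The biological coefficient of variation, the relative spread between pools, was 0.334 at day 3 and 0.497 in the non-regenerating group. Of the 6 libraries, 3 had their nearest library in another group by Spearman correlation across transcripts. Non-regenerating replicate 1 was nearest to day 8 replicate 2 (rho 0.923, and at most 0.915 within its group), and day 3 replicate 3 was nearest to day 0 replicate 1 (rho 0.977, and at most 0.957 within its group). Day 3 replicate 2 was nearest to day 1 replicate 2 by a narrow margin (rho 0.975, and 0.974 with day 3 replicate 1). All were kept under their labels, and counts are given with and without them where they matter.

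Day 3 siphons spread their RNA over more transcripts than non-regenerating siphons. In the non-regenerating libraries, numbered 1 to 3, the most counted transcripts that together held 50% of the counts numbered 96, 117 and 98. In the day 3 libraries they numbered 325, 331 and 245, and at day 0 they numbered 237, 253 and 287. All 3 day 3 libraries thus lay above all 3 non-regenerating libraries, and day 3 replicate 3, the lowest of its group, lay within the range of day 0. The 100 most counted transcripts took 47.6% to 50.7% of the non-regenerating counts and 33.4% to 37.7% of the day 3 counts. The 20 most counted transcripts of the non-regenerating group took 27.3%, 26.1% and 27.8% of its libraries, while the same 20 took 9.76%, 10.2% and 9.85% at day 3. The 20 most counted transcripts of day 3 took 17.4%, 18.4% and 20.1% there and 13.8%, 13.0% and 15.8% of the non-regenerating libraries. Each set was picked for being high in its own group, so these shares are a description. Of the 20 most counted in the non-regenerating group 20, 15 were called lower at day 3 and 0 higher, and 11 were also among the 20 of day 3. All shares here are of raw library totals and so do not depend on the scaling between libraries.

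**Figure D1:**
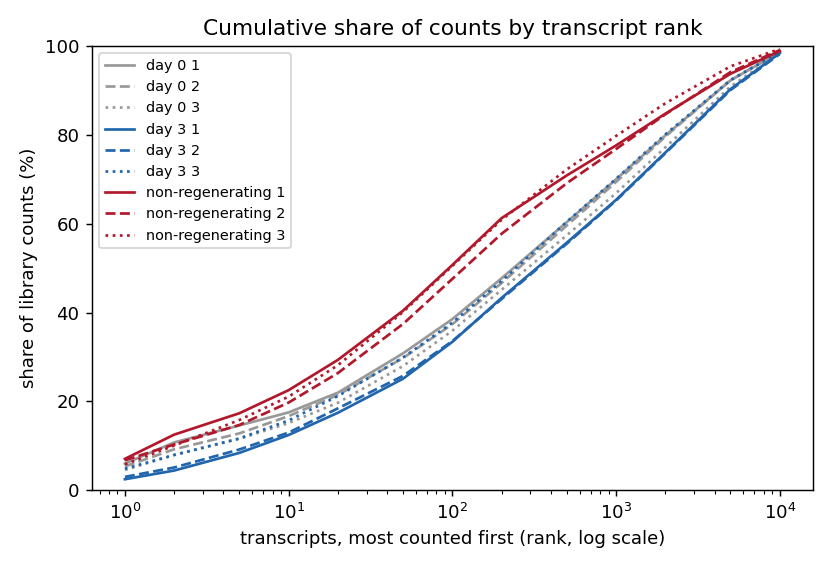
Cumulative share of a library's counts (y axis, %) held by its most counted transcripts (x axis, rank on a log scale), with a line for each library of day 0, day 3 and the non-regenerating group. The 3 non-regenerating lines reach 50% after 96 to 117 transcripts, and the day 3 lines after 245 to 331.

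Of the 15328 transcripts tested, 3160 differed between day 3 and the non-regenerating siphons (20.6%; edgeR's quasi-likelihood test, two-sided, Benjamini-Hochberg adjusted p under 0.05). Of these, 1577 were higher at day 3 (10.3%) and 1583 were lower (10.3%). A change of more than 2-fold was found for 1162 of the higher and 1170 of the lower ones. More than 4-fold was found for 400 and 439, and more than 16-fold for 48 and 55. The 6 libraries did not overlap between the groups for 5191 transcripts, or 33.9%, with 2640 higher and 2551 lower at day 3. Among the calls, 3018 showed no overlap and 142 did overlap. Over all tested transcripts the log2 fold changes had a median standard error of 0.35, so a transcript outside the calls is not shown to be equal in both groups. The test estimated the spread over all 15 libraries. A fit to the 6 libraries alone called 1373 transcripts, 558 higher and 815 lower at day 3.

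The even split between higher and lower calls also depended on the scaling. TMM scaling, the trimmed mean of M-values, sets libraries level on the bulk of their transcripts. With library totals alone the median log2 fold change moved from 0.03 to 0.60, and 5046 transcripts were called higher and 597 lower. The levels below are in CPM, read counts rescaled to a common library size, after TMM scaling, unless they are given as a share of the library total.

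The leave-one-out fits showed how far each library followed its group. For each of the 6 libraries, transcripts were called from a fit without it, and the library was then placed on the line between the groups on the log2 scale. On that scale 0 is the mean of the other group and 1 the mean of the remaining libraries of its own group. The day 3 libraries had median positions of 0.87, 0.88 and 0.92 for the transcripts called higher at day 3, and 0.90, 0.91 and 0.85 for those called lower, in the order of replicates 1 to 3. Non-regenerating replicates 2 and 3 stood at 0.95 and 0.88 for higher transcripts and at 0.92 and 0.91 for lower ones. Non-regenerating replicate 1 stood apart. It lay at a median of 0.41 for the 2409 transcripts called higher at day 3 without it, and 43.0% of them were nearer to its own group than to day 3. For the 1756 called lower at day 3 it lay at 0.73, and 68.6% were nearer to its own group. In this pool the positions of the transcripts called higher at day 3 thus varied widely, with quartiles of 0.08 and 0.78. Without this library 4165 transcripts were called, of which 2735 were among the 3160. Without day 3 replicate 3 there were 2358 calls, with 1191 higher and 1167 lower, and 2103 were among the 3160. Without day 3 replicate 2 there were 2140, of which 2073 were among the 3160.

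**Figure D2:**
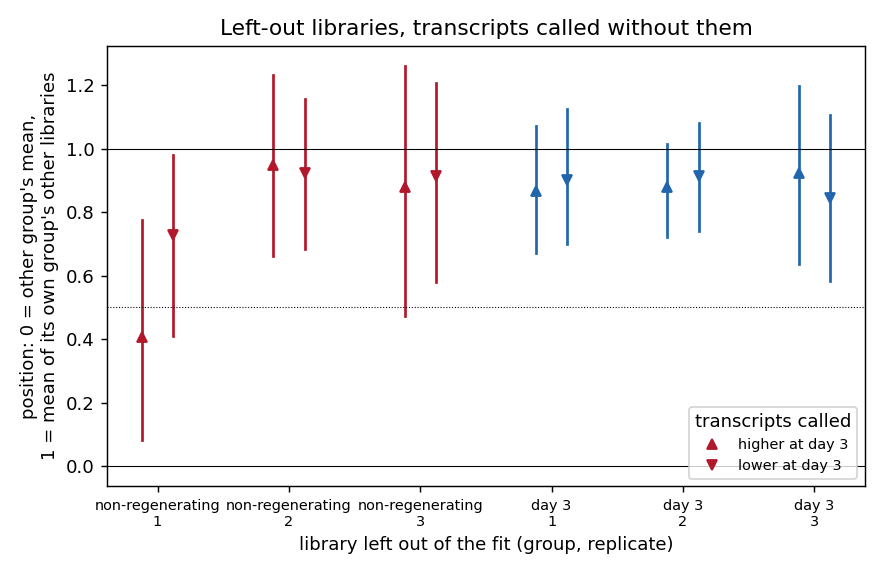
Position of each library left out of the fit (x axis, group and replicate), for the transcripts called without it. On the y axis 0 is the mean of the other group and 1 the mean of its own group's remaining libraries; symbols are medians, pointing up for transcripts higher at day 3 and down for lower, and bars span the quartiles. Non-regenerating replicate 1 is at 0.41 for higher transcripts, and every other median is between 0.73 and 0.95.

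Among the most abundant transcripts, lower calls at day 3 far outnumbered higher ones. Tested transcripts were put into classes by their mean CPM over the 6 libraries. In the class of 1000 CPM or more, 93 of 177 transcripts were lower at day 3 and 6 were higher, beside 10.3% in each direction over all transcripts. The median log2 fold change in this class was -0.97, and 148 of the 177 values lay below 0. From 100 to 1000 CPM, 311 of 1333 were lower and 154 higher, with a median of -0.20. From 10 to 100 CPM the directions were nearly even, at 809 lower and 871 higher of 7088, with a median of 0.04. From 1 to 10 CPM 526 were higher and 325 lower of 5652, with a median of 0.14, but this lead of higher calls was lost with classes from other libraries, given below. Under 1 CPM, 45 were lower and 20 higher of 1078, with a median of -0.26. The median standard error of the log2 fold change was 0.82 in that lowest class, 0.46 from 1 to 10 CPM and 0.26 to 0.31 in the other classes. Low transcripts therefore needed a much larger difference to be called.

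**Figure D3:**
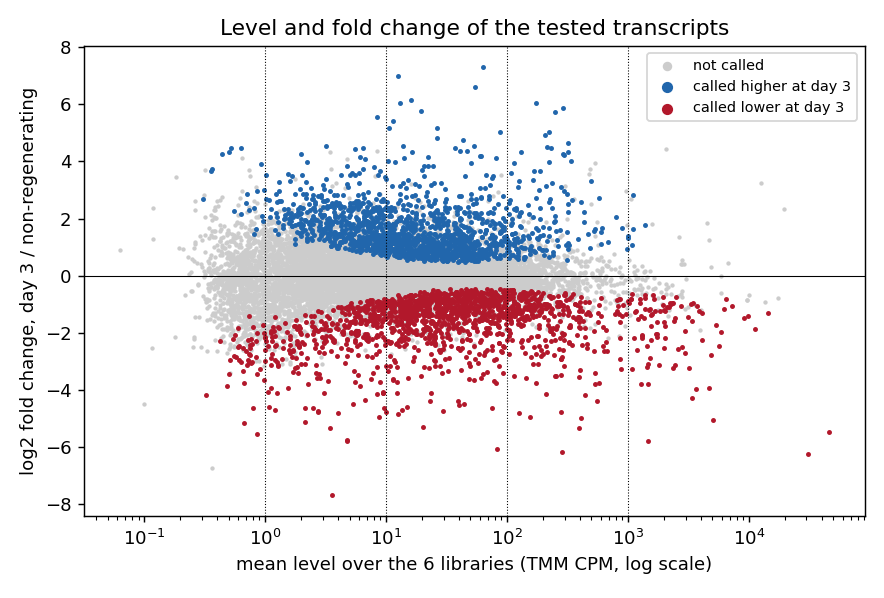
Log2 fold change of day 3 over non-regenerating (y axis) against the mean level over the 6 libraries (x axis, TMM CPM, log scale), with a point for each of the 15328 tested transcripts. Coloured points are the 1577 called higher and 1583 called lower, dotted lines mark the class bounds, and beyond 1000 CPM the coloured points lie mostly below 0.

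**Figure D4:**
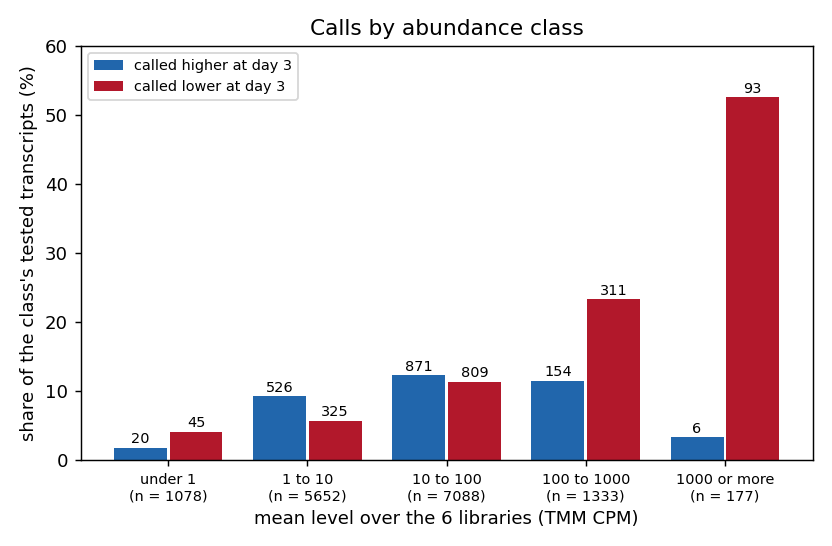
Share of each class's tested transcripts (y axis, %) called higher or lower at day 3, by class of mean level over the 6 libraries (x axis, TMM CPM). Numbers over the bars are transcripts; in the class of 1000 CPM or more 93 were lower and 6 higher.

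As shares of the library total, the class of 1000 CPM or more held 58.4%, 54.1% and 57.4% of the non-regenerating libraries, 39.5%, 39.3% and 42.4% of the day 3 libraries, and 41.1% to 42.4% of the day 0 libraries. Its 93 lower transcripts, which were chosen for this difference, held 41.2%, 37.6% and 37.1% of the non-regenerating libraries and 13.7%, 12.6% and 13.3% of the day 3 libraries. They held 11.6% to 15.1% at day 0, 12.4% to 16.04% at day 1 and 13.0% to 16.4% at day 8. The class of 10 to 100 CPM held a smaller share of the non-regenerating libraries, at 15.4% to 17.7%, than of the day 3 libraries, at 22.9% to 26.2%. Among the 93, the log2 fold changes ran from -6.25 to -0.63 with a median of -1.48. For 35 of them the change was more than 4-fold. For 91 the groups did not overlap, which also held for 3018 of all 3160 calls. The 78 abundant transcripts outside the calls held 16.3% to 20.1% of the non-regenerating counts and 24.8% to 28.0% of the day 3 counts. Their log2 fold changes ran from -1.91 to 4.43 with a median of -0.40. The 4 changes of more than 4-fold among the 78 were all rises at day 3. For 15 of the 78 the groups did not overlap, beside 33.9% of all tested transcripts, calls included. Neither number of transcripts without overlap sets abundant transcripts apart.

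The classes were drawn from the libraries compared, so a transcript very high in either group moves up a class. With classes drawn from days 0, 1 and 8 instead, which take no part in the comparison, 42 of 116 transcripts of 1000 CPM or more were lower and 8 higher, with a median log2 fold change of -0.66. The classes of 100 to 1000 CPM and 1 to 10 CPM were then nearly even, with 224 lower and 204 higher of 1303 and with 420 lower and 413 higher of 5486. From 10 to 100 CPM there were 765 lower and 939 higher of 7168. Under 1 CPM there were 132 lower and 13 higher of 1255, and the median was -0.72. The expression filter used all 15 libraries, so a transcript low on days 0, 1 and 8 could be tested because of the non-regenerating libraries. Such transcripts are lower at day 3 by the choice, so the lead under 1 CPM is not a result about abundance. With these classes a clear lead of lower calls thus remained at 1000 CPM or more only. With library totals alone the numbers were 52 lower and 12 higher in the top class, and from 100 to 1000 CPM the direction turned, with 132 lower and 427 higher. The 6 abundant higher transcripts became 13 when non-regenerating replicate 1 was left out and 2 when day 3 replicate 3 was.

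Among abundant calls without overlap, ENSCINT00000019271 and ENSCINT00000015480 had the largest drop in mean CPM. As they were chosen for that gap, their separation and calls are a description. ENSCINT00000019271 stood at 93326, 86437 and 90660 CPM in the non-regenerating libraries and at 1659, 1345 and 2998 CPM at day 3. The groups were far apart and the non-regenerating pools were nearly level, with a log2 fold change of -5.49 ± 0.75 (SE; edgeR adjusted p = 0.000433). ENSCINT00000015480 stood at 72044, 45498 and 65860 CPM in the non-regenerating libraries and at 654, 376 and 1372 CPM at day 3. Its log2 fold change was -6.25 ± 0.98 (SE; edgeR adjusted p = 0.00099). Both were already low at day 0, at 2883 ± 1775 CPM and 1656 ± 1513 CPM (SD, n = 3), and neither passed the test between day 3 and day 0 (edgeR adjusted p = 0.85 and 0.801). Within day 3, replicate 3 was the highest library for both.

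Among abundant calls without overlap, ENSCINT00000036579 and ENSCINT00000015376 had the largest rise in mean CPM. They were chosen for that gap, so their separation and calls are a description. Outside the calls, log2 fold changes in this class reached 4.43. ENSCINT00000036579 stood at 619, 116 and 82.5 CPM in the non-regenerating libraries and at 994, 1649 and 3116 CPM at day 3. Non-regenerating replicate 1 came close to the lowest day 3 library, and day 3 replicate 3 was the highest. The log2 fold change was 2.82 ± 0.80 (SE; edgeR adjusted p = 0.0253), and the call was lost without non-regenerating replicate 2, non-regenerating replicate 3 or day 3 replicate 3, and in the 6 libraries alone (0.000773 to 0.0905 over 15 alternatives). ENSCINT00000015376 stood at 521, 405 and 949.7 CPM against 1585, 1664 and 3210 CPM at day 3, with a log2 fold change of 1.78 ± 0.49 (SE; edgeR adjusted p = 0.0205). Here non-regenerating replicate 3 was the highest of its group. The call was lost in fits lacking non-regenerating replicate 2, day 3 replicate 3, or both day 3 replicate 3 and non-regenerating replicate 1 (0.000982 to 0.145 over 15 alternatives). The day 0 means were above those of day 3, at 2908 ± 673 CPM for ENSCINT00000036579 and 2884 ± 214 CPM for ENSCINT00000015376, with libraries of the groups overlapping.

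Transcripts present in a single group only were rare. A transcript was counted as near on/off when every library of a group was at or below 0.5 CPM and every library of the other at or above 5 CPM. Over all 17745 transcripts, 2 were on at day 3 and off in the non-regenerating libraries, and 2 were the reverse. With limits of 1 and 10 CPM there were 6 and 1, and with limits of 0.2 and 2 CPM there were 0 and 0. A graded gap, added after the data were seen, showed how steeply the numbers fell. With at least 5 CPM in every library of the higher group, the lowest library of that group exceeded the highest of the other by 2-fold or more in 296 transcripts higher at day 3 and 370 lower. By 4-fold or more it did so in 69 and 100, by 8-fold or more in 27 and 30, and by 16-fold or more in 8 and 12.

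ENSCINT00000032994 was on at day 3, with 24.4, 42.1 and 11.4 CPM, and off in the non-regenerating libraries, with 0.497, 0.345 and 0.294 CPM. Its log2 fold change was 6.05 ± 0.86 (SE; edgeR adjusted p = 0.000563), and non-regenerating replicate 1 lay just inside the limit. The groups held 954 and 18 counts, a ratio scaled for depth of 69.4 with an exact 95% interval of 43.6 to 117.5 that covers counting error only. Day 0 libraries held 49.1, 8.24 and 10.3 CPM, so the transcript was present there too, while day 1 and day 8 were lower at 3.54 ± 1.66 and 5.80 ± 2.25 CPM. ENSCINT00000022346 was the other transcript on at day 3, with 24.8, 18.8 and 31.7 CPM. Of its 10 non-regenerating counts all were in replicate 2, at 0.383 CPM. Every day 3 library lay above every library of day 0, which held 9.26, 12.2 and 0.912 CPM, but the test of day 3 against day 0 did not pass (log2 fold change 1.75 ± 0.89, adjusted p of 0.739 in edgeR). The adjusted p against the non-regenerating group was 0.00256 in edgeR, and this call held in all 15 alternatives. Both transcripts were chosen for their gap between these groups, so the calls and ratio are no support of their own.

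ENSCINT00000023388 and ENSCINT00000033762 were off at day 3. ENSCINT00000023388 stood at 0.496, 0.419 and 0.444 CPM at day 3 and at 5.61, 12.1 and 13.1 CPM in the non-regenerating libraries, a log2 fold change of -4.49 ± 0.66 (SE; edgeR adjusted p = 0.000574). Its day 3 libraries held 4, 6 and 6 counts, so it was just under the limit of 0.5 CPM and not absent. ENSCINT00000033762 stood at 0, 0.28 and 0.148 CPM at day 3 and at 5.83, 10.99 and 11.3 CPM in the non-regenerating libraries, a log2 fold change of -5.80 ± 0.83 (SE; edgeR adjusted p = 0.000526). In both, non-regenerating replicate 1 was the lowest of its group, near the limit of 5 CPM. Both were below the non-regenerating group in the other amputated siphons. ENSCINT00000033762 stood at 0.258 ± 0.115 CPM at day 0 and 0.334 ± 0.2 CPM at day 8. ENSCINT00000023388 stood at 0.618 ± 0.057 CPM at day 0, 1.24 ± 0.94 CPM at day 1 and 0.628 ± 0.212 CPM at day 8. Every day 0 library was above the limit of 0.5 CPM for that transcript, and day 1 replicate 3 reached 2.12 CPM. The depth-scaled ratios of non-regenerating to day 3 counts were 23.1 (exact 95% interval 14.1 to 40.8) for ENSCINT00000023388 and 56.8 (25.9 to 155.6) for ENSCINT00000033762. Both calls held in all 14 alternatives in which the transcript was tested. As the rule for near on/off chose these transcripts for their gap in the same libraries, calls, ratios and stability are a description.

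The number of near on/off transcripts rested on single libraries. Without non-regenerating replicate 1 there were 30 transcripts on at day 3, of which 2 remained with it. In that pool the 30 ran from 0 to 425 CPM with a median of 6.96 CPM, and 19 reached 5 CPM, whereas in replicates 2 and 3 all 30 were at or below 0.5 CPM by the rule. Without non-regenerating replicate 2 the number was 1. Transcripts off at day 3 numbered 6 without non-regenerating replicate 3 and 2 or 3 without any other library. With library totals alone 6 transcripts were on at day 3 and 0 off.

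Most of the difference between day 3 and the non-regenerating group was also found at day 0. Day 0 differed from the non-regenerating group in 4336 transcripts (28.3%), and day 3 differed from day 0 in 0 (0%) in edgeR, where the lowest adjusted p was 0.543. At an unadjusted p under 0.05 there were 1043 between day 3 and day 0; DESeq2 called 30 and limma voom 0. Day 3 and day 0 libraries did not overlap for 14.2% of transcripts. The 2 comparisons with the non-regenerating group share its libraries, so their values are set side by side without a test of likeness. For the 1577 transcripts called higher at day 3, the median log2 difference from the non-regenerating group was 1.37 at day 3 and 1.33 at day 0, and the median from day 0 to day 3 was 0.01. For the 1583 called lower the medians were -1.38 at day 3 and -1.38 at day 0, with -0.01 between them.

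A difference was counted as not already present at day 0 under 3 conditions. First, it had to be called between day 3 and the non-regenerating group, its day 0 log2 difference had to be less than 0.5 of its day 3 log2 difference, and every day 3 library had to lie beyond every day 0 library on the side away from the non-regenerating mean. Of the 3160 calls, 172 met the condition on size, and in 6 of these day 0 lay on the other side of the non-regenerating group. All conditions were met by 105 transcripts, 69 higher and 36 lower at day 3. With 0.25 in place of 0.5 the numbers were 17 and 5. None of the 105 passed the test between day 3 and day 0 in edgeR, so the split is a description.

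The 69 higher ones had a median log2 difference from the non-regenerating group of 1.13 at day 3 and 0.40 at day 0, and the 36 lower ones of -1.66 and -0.62. Their median level over the 6 libraries was 14.3 CPM for the higher and 2.22 CPM for the lower ones, where all transcripts called higher or lower had medians of 16.7 and 31.8 CPM. By abundance, 28 of the 69 lay between 1 and 10 CPM, 32 between 10 and 100, 8 between 100 and 1000, 1 under 1 CPM and 0 at 1000 CPM or more. Of the 36 lower ones, 10 were under 1 CPM, 13 from 1 to 10, 10 from 10 to 100, 3 from 100 to 1000 and 0 at 1000 CPM or more. The class of 1000 CPM or more holds 177 of the 15328 tested transcripts and 99 of the 3160 calls, so few would fall there in any set of this size. Days 1 and 8 took no part in choosing them. On group means with 0.5 CPM added, the median log2 difference of the 69 from the non-regenerating group was 0.38 at day 0 and 1.10 at day 3, while day 1 stood at 0.73 and day 8 at 0.91. For the 36 lower ones it was -0.53 at day 0 and -1.28 at day 3, with day 1 at -0.67 and day 8 at -0.82. The choice fixes day 3 as the more extreme of days 0 and 3, and days 1 and 8 lay between them in both directions. Groups outside such a choice tend to fall between the 2 for that reason alone. The position of days 1 and 8 is therefore a description and no support for the split.

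All transcripts named from the set not present at day 0 had to be called and to lie beyond every day 0 library. Their calls, gaps and stability are thus a description. ENSCINT00000024202 had the lowest p between day 3 and day 0 among the higher ones. It stood at 57.2, 66.3 and 44.7 CPM at day 3, at 22.8, 27.7 and 20.1 CPM at day 0 and at 32.3, 22.2 and 22.7 CPM in the non-regenerating libraries. Day 3 lay above both groups with no overlap, which the choice required for day 0. Day 0 and the non-regenerating group shared a range. The log2 fold change against the non-regenerating group was 1.12 ± 0.23 (SE; edgeR adjusted p = 0.00405), and the call held in all 15 alternatives. Days 1 and 8 were at 65.7 ± 11.03 and 64.0 ± 12.3 CPM, as high as day 3. ENSCINT00000025489 came next, at 80.6, 49.7 and 35.6 CPM at day 3, 16.9, 26.0 and 16.7 CPM at day 0 and 26.6, 29.7 and 19.1 CPM in the non-regenerating libraries. Its log2 fold change was 1.13 ± 0.30 (SE; edgeR adjusted p = 0.0179), lost without non-regenerating replicate 3 or day 3 replicate 1 and in the 6 libraries alone (0.00212 to 0.0864 over 15 alternatives). Day 1 was intermediate, at 34.0 ± 8.33 CPM, and day 8 stood at 56.1 ± 7.95 CPM.

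Among the lower ones ENSCINT00000026013 came first, at 5.33, 7.97 and 8.21 CPM at day 3, 12.9, 11.4 and 14.3 CPM at day 0 and 12.6, 17.2 and 13.1 CPM in the non-regenerating libraries. Its log2 fold change was -0.99 ± 0.26 (SE; edgeR adjusted p = 0.0147). The call was lost with library totals alone, without non-regenerating replicate 2 or day 3 replicate 1, and in the 6 libraries alone (0.00108 to 0.261 over 15 alternatives). ENSCINT00000011920 stood at 6.69, 14.4 and 14.5 CPM at day 3, 19.2, 20.03 and 20.9 CPM at day 0 and 25.4, 18.7 and 17.2 CPM in the non-regenerating libraries, so that day 3 replicate 1 was by far the lowest. Its log2 fold change was -0.78 ± 0.26 (SE; edgeR adjusted p = 0.0458), and it passed in 6 of 15 alternatives (0.0117 to 0.55), not in the fit with the replicate number as a block. Its log2 levels followed those of ENSCINT00000011857 over the 15 libraries at r = 0.998, so they may share reads. The abundant ENSCINT00000015480, ENSCINT00000036579 and ENSCINT00000019271 also had a closest transcript at r = 0.994, 0.992 and 0.991. For the other named transcripts the closest was at 0.884 to 0.983. Whether any of these share reads was not tested.

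**Figure D5:**
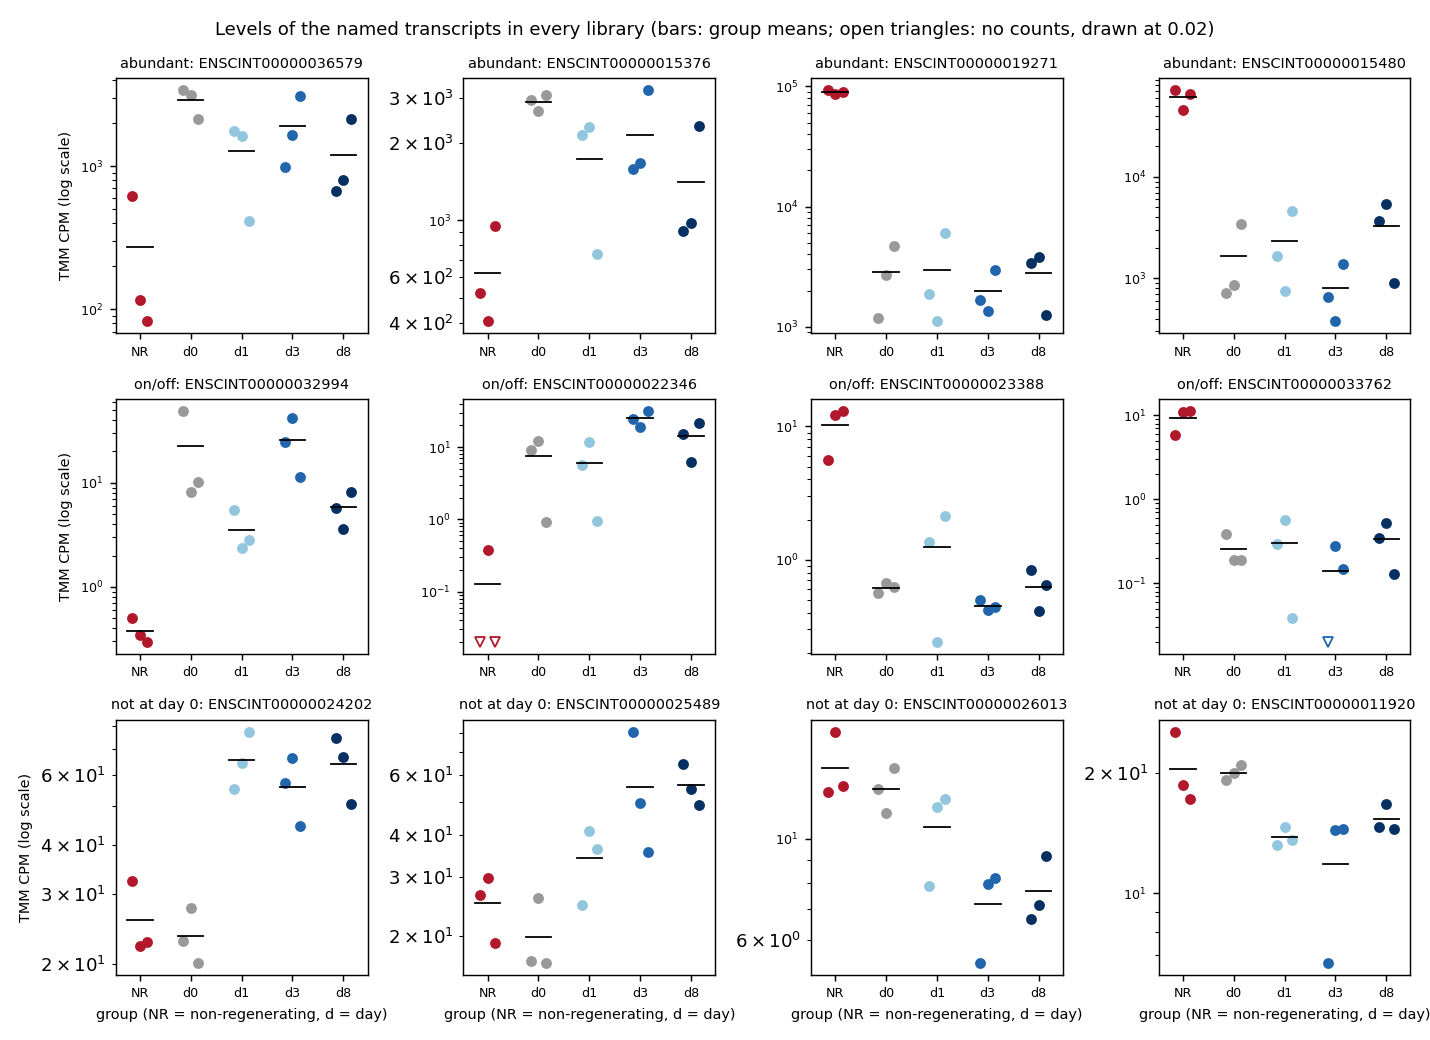
Levels (y axes, TMM CPM on log scales) of the 12 named transcripts in every library of the 5 groups (x axes), with a panel for each transcript; points are libraries, bars are group means of 3 libraries, and open triangles are libraries without a count, drawn at 0.02. In the top and middle rows day 0 lies on the day 3 side of the non-regenerating group, and in the bottom row day 0 lies nearer to the non-regenerating group than to day 3.

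The set not present at day 0 also rested on single libraries. Without day 3 replicate 3, whose nearest library was of day 0, it held 172 higher and 177 lower transcripts, and without that library and non-regenerating replicate 1 it held 140 and 271. It held 28 higher and 22 lower without day 3 replicate 1, and 43 and 22 without non-regenerating replicate 2. The higher ones numbered 37 when non-regenerating replicate 3 was left out and 45 when day 3 replicate 2 was, and the lower ones 80 without day 0 replicate 2 and 55 without day 0 replicate 3. With library totals alone there were 184 higher and 15 lower. In the comparison of day 3 with day 0 itself, edgeR called 0 without any single library of either group and 23, with 14 higher and 9 lower, without both day 3 replicate 3 and non-regenerating replicate 1.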

How the data were processed

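The deposited values are raw read counts per Ensembl transcript, not normalized. TopHat, Bowtie and HTSeq appear in the submitters' processing notes; their versions and settings, the genome build and the use of strand were not given in the sources used here, so overlapping and antisense transcripts cannot be told apart. Counts of 215 transcripts agreed within 1% with another's; none of these is named.

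In R 4.3.3, edgeR 4.0.16 (expression filter with a minimum count of 10, TMM, glmQLFit with robust estimation, glmQLFTest) was fitted to all 15 libraries with a mean per group. P-values were adjusted by Benjamini-Hochberg over 15328 transcripts; standard errors are the log2 fold change over the root of F. The fit was tested on simulated data. DESeq2 1.42.0 and limma 3.58.1 (voom) were alternatives, as were other scalings, filters and libraries.

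Named transcripts were at most 2 in each direction per set. For the abundant set they had the largest difference in mean CPM among calls without overlap. For near on/off they had the highest mean where present. For the set not at day 0, with 5 CPM or more as the mean of the higher group, they had the lowest p between day 3 and day 0. The comparison, classes, limits and rules were chosen with earlier results of these data known; left-out positions, the graded gap and classes from days 0, 1 and 8 were added after the data were seen. In the main fit, p-values weigh a group difference against a spread between pools estimated over all 15 libraries. No library pair was merged.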

Additional observations from a re-analysis of the deposited data

How the results depend on the processing

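The calls between day 3 and the non-regenerating group moved most with library totals alone (5643) and in the 6 libraries alone (1373); elsewhere they ran from 2132 to 4187. Day 3 against day 0 gave 30 calls in DESeq2, 1 in the 6 libraries alone and 23 without non-regenerating replicate 1 and day 3 replicate 3, a pair left out after the data were seen. Day 0 against the non-regenerating group gave 2776 in the 6 libraries alone. In the class of 1000 CPM or more, higher calls numbered 12 with library totals, 10 in limma voom, 3 in the 6 libraries alone and 2 to 13 without a replicate. Lower calls there numbered 52 with library totals and 42 with classes from days 0, 1 and 8. Near on/off transcripts present at day 3 numbered 6 with library totals, 33 without the pair, 0 with limits of 0.2 and 2 CPM, 6 with limits of 1 and 10 CPM and 1 to 30 without a replicate. Those present in the non-regenerating group numbered 0, 5, 0, 1 and 2 to 6 in the same order. Of the differences not present at day 0, higher ones numbered 184 with library totals, 140 without the pair, 17 with a share of 0.25 and 28 to 172 without a replicate. Lower ones numbered 15, 271, 5 and 22 to 177 in the same order, with 56 without the filter, 23 with at least 10 CPM in 3 libraries and 62 in DESeq2. The cause of these shifts was not tested.

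Replicate numbers recur in each group, and no clear pairing by number was seen. Deviations of same-numbered day 3 and non-regenerating libraries correlated at -0.04, 0.12 and 0.09, and 3 of 6 samples correlated best with their own number. With 3 libraries per group these values cannot exclude a pairing. The replicate block gave 2762 calls against the non-regenerating group and 0 against day 0. Of the 12 named transcripts none changed direction in any alternative; 23 of their 178 alternative fits missed the threshold. Low transcripts were limited by depth: 0.5 CPM in the shallowest day 3 library is 4.04 counts.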
